A study of Mus musculus with 4 samples.

Results

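The genes described here gathered the most open chromatin peaks in mouse skeletal muscle. In 4 ATAC-seq peak lists, 1 per muscle, each peak carried the name of the gene with the nearest transcription start site (TSS). Peaks were counted per gene in every list, the 4 counts were added, and genes with a sum of 35 or more were kept. This rule kept 194 of 17157 genes with a peak, or 1.13%, and 8469 of 120839 peaks, or 7.01%. They are called dense genes below. They were chosen by their peak counts, so those counts are a description of the choice and not a test of it.

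Open chromatin was mapped in 2 fast, largely glycolytic limb muscles, the extensor digitorum longus (EDL) and the quadriceps (Quad), in the slow and oxidative soleus (Sol), and in the diaphragm (Dia), which works without rest. In ATAC-seq the transposase Tn5 cuts and tags accessible DNA, so that tagged fragments pile up at open sites. The mice were sedentary, wild type and of the strain C57BL/6 in all 4 groups, and the study's methods give C57BL/6J males. Each muscle was represented by 1 sample of ground whole tissue with 1 peak list, which the labels call pooled. The study's legend to its plot of these peaks gives 1 to 2 per group. How many animals or replicates each list combines is not known. An age is not in the labels, though the study's methods give one for the mice when bought. Where 4 values stand side by side, they follow the order EDL, Quad, Sol, Dia.

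A gene can be served by many regulatory sites. Promoters lie at its TSS, whereas enhancers sit in its introns or in the flanking DNA, and can act over long distances. Broad groups of neighbouring enhancers are known from genes that set the identity of a cell, such as those of transcription factors. A peak is given here to the nearest TSS, which need not be the gene it acts on, so genes with long introns or wide empty flanks can collect peaks by position alone. Whole muscle holds nuclei of fibres, vessels, connective tissue and blood cells, and a site open in more nuclei cannot be told apart from a site more open in each nucleus.

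The first sequences shown are the sites outside promoters that best represent the genes with the largest sums. For each, the region with a peak in all 4 lists and the highest mean score percentile was taken, where the score is the authors' signal per peak and the percentile is its place within its own list. The 200 bases around the centre are printed from the plus strand of GRCm38.p6, the assembly behind mm10. Arhgap26 also ranks among the largest sums, and no sequence is shown for it.

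9430078K24Rik: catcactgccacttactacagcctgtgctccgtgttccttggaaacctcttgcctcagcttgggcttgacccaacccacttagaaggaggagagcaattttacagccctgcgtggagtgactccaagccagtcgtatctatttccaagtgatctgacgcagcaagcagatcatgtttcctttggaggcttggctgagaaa
Plpp3: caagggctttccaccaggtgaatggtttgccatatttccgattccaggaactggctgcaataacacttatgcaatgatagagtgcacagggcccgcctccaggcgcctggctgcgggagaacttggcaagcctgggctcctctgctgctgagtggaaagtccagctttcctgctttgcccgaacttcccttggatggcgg
Klf4: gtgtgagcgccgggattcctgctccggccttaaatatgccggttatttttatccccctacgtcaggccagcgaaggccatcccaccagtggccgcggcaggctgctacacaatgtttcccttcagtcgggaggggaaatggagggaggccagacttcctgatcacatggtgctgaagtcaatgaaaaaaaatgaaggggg
Ptprg: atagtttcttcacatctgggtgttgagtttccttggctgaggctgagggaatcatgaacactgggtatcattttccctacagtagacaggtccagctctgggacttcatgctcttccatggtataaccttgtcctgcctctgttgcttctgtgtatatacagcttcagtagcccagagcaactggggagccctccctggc

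The 9430078K24Rik site (chr12:79887268-79887467) was intergenic, 37.4 kb downstream of the TSS, with score percentiles of 92.6, 86.5, 83.4 and 72.5. The Plpp3 site (chr4:105328893-105329092) was intergenic, 172 kb downstream, with percentiles of 72.9, 75.2, 81.3 and 66.8 in the same order. The Klf4 site (chr4:55651208-55651407) lay in intergenic DNA on the other side of its gene, at -119 kb, and was the strongest of the 4, with percentiles of 94.8, 93.9, 93.8 and 90.2. The Ptprg site (chr14:11863445-11863644) was in intron 2 of 29, 310 kb from the TSS, with percentiles of 80.7, 77.9, 82.3 and 64.2. None of these 4 windows held a match to the 6 motifs searched below, which says only that those letters are not in these bases.

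The second set shows muscle-biased sites: for the dense gene whose list-scaled count was largest relative to the mean of the other 3 muscles, in each muscle, the highest-scored region outside promoters that held a peak of that list alone. This set was chosen after the values were seen. Capitals mark matches to the searched motifs.

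Cops8: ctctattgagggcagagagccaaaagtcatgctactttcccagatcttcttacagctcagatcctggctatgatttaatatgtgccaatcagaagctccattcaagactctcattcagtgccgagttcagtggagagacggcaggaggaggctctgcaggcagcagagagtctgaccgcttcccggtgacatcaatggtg
Rbfox1: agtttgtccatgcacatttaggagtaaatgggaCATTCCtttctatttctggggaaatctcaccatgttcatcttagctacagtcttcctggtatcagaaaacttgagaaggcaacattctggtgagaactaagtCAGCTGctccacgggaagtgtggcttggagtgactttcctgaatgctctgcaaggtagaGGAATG
2010111I01Rik: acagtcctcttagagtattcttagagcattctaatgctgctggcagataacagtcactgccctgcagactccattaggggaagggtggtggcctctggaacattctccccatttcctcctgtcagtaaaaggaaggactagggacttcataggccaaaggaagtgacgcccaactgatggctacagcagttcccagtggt
Tmcc3: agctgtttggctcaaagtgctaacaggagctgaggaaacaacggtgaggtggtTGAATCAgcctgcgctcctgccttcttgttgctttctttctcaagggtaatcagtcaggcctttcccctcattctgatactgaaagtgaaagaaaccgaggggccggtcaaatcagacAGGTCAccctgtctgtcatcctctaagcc

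The Cops8 site (chr1:90514337-90514536, intergenic, at -89.0 kb) had an EDL score percentile of 22.3. The Rbfox1 site (chr16:7097060-7097259, intron 1 of 12) had a Quad percentile of 46.5, and its capitals are a TEAD motif, an E-box and a second TEAD motif on the other strand. The 2010111I01Rik site (chr13:63255507-63255706, intron 13 of 15) reached 69.9 in Sol. The Tmcc3 site (chr10:94545526-94545725, intron 1 of 3) had a Dia percentile of 46.4, with an AP-1 motif and a nuclear receptor motif in capitals. Each of these sites scored below the sites of the first set in the list where it was called. A missing peak in another list means that none was called at that position, not that the site was closed.

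Peak counts fell off steeply over genes. The median gene with a peak had a sum of 5, the median dense gene 40.5, and the highest sum was 91. Of the 194 genes, 35 had a sum of 50 or more, 81 lay from 40 to 49 and 78 from 35 to 39. Just inside the limit, 16 genes had a sum of 35, among them Camta1 with 10, 11, 8 and 6 peaks in EDL, Quad, Sol and Dia. Just outside it, 21 genes had a sum of 34, among them Adamts5 with 10, 12, 7 and 5 and Atoh8 with 9, 12, 6 and 7. Genes on either side of the limit therefore looked alike. Every dense gene had at least 2 peaks in each list. The Quad list, the longest, gave most peaks in 149 genes, and the Dia list, the shortest, gave fewest in 166, ties not counted.

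The largest sum belonged to 9430078K24Rik, a noncoding RNA gene on chromosome 12 (79917019 to 79936264). It had 27 peaks, 32, 17 and 15, spread over 39 regions from -86.1 kb to 312 kb of the TSS. A region here is a set of peaks from any list that overlap by at least 1 bp. Of its peaks 41 were labelled as lying in introns and 44 as intergenic, and 4 were at the promoter. An intron label can belong to another gene. 9430078K24Rik spans 19.2 kb, and its downstream neighbour Rad51b, also dense, lies from 79297282 to 79848260.

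Peaks of several lists often marked the same site, and dense genes had between 11 and 39 regions, with a median of 19.0. Arhgap26, which encodes a GTPase activating protein, had 17, 25, 18 and 14 peaks in EDL, Quad, Sol and Dia in 32 regions. Plpp3, a phospholipid phosphatase, had 15, 26, 20 and 12 in 35 regions. Both had most peaks in Quad, but they differed in layout: 65 of the 74 Arhgap26 peaks were intronic, whereas 61 of the 73 Plpp3 peaks were intergenic, out to 535 kb.

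Klf4, a zinc finger transcription factor whose gene is short, had 17, 22, 17 and 16 peaks, 67 of them intergenic and 91.7% upstream of the TSS. Ptprg, a receptor tyrosine phosphatase, had 19, 21, 20 and 12, of which 63 were intronic. Sgms1, a sphingomyelin synthase, held 71 peaks much closer to its TSSs, at a median of 26.7 kb. Relative to list length, the 4 muscles lay near each other for most of these genes, and the largest gap was at Ank3, an ankyrin that anchors membrane proteins, with 14, 24, 16 and 6 peaks.

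**Figure D1:**
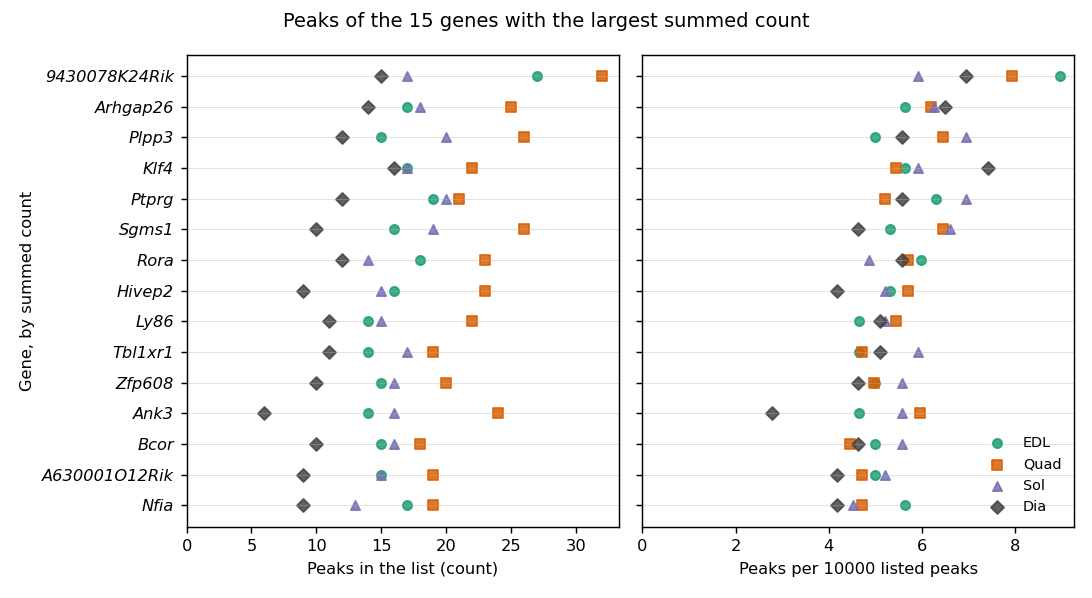
Peaks of the 15 genes with the largest summed count, as counts in each list (left) and per 10000 listed peaks (right), with 1 point for each of the muscles EDL, Quad, Sol and Dia. Quad has the most peaks at each gene shown and Dia the fewest (not so at Tmcc3, tied at 58 and not shown), while after scaling the points of most genes lie close together, with Ank3 lowest in Dia at 2.78 per 10000.

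The remaining genes among the 15 largest were Rora, Hivep2, Ly86, Tbl1xr1, Zfp608, Bcor, A630001O12Rik and Nfia, with sums from 58 to 67. Tmcc3 and Trib2 also had a sum of 58 and fell outside by alphabetical order. Hivep2, Zfp608, Bcor and Nfia encode nuclear proteins that bind DNA or act with proteins that do, and Tbl1xr1 is part of corepressor complexes. Ly86, known as a surface antigen of immune cells, had 62 peaks that were all intergenic, with none at its promoter and a median distance of 134 kb. Its 27 regions included a run of 13 within 49.4 kb. In the current RefSeq gene models 10 of its 62 peaks are nearest to Ly86, so its name marks a place between genes more than the gene itself.

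By gene type, 166 dense genes were protein-coding, 26 were noncoding RNA genes and 2 were pseudogenes. Noncoding RNA genes made up 13.4% of dense genes and 13.3% of all genes with a peak. Some names share a domain. The starts of 37 dense genes followed each other along a chromosome, with no other gene with a RefSeq match in between, in 19 pairs. Rora, a nuclear receptor, and the noncoding 9530091C08Rik start 112 kb apart, and 9530091C08Rik lies inside the Rora gene. Other such pairs were Nr3c1 with Arhgap26 at 498 kb, Maf with Wwox at 1267 kb and Ets1 with Gm27162 at 233 kb. Chromosome 13 had the highest share of its peaks in dense genes, 14.2%, and chromosome 11 the lowest among assembled chromosomes with dense genes, 2.57%.

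Which kinds of genes were dense was read from 11 lists of genes, written with earlier results of these data known, so their counts support no claim of enrichment. Among 26 muscle transcription factors, 5 were dense, or 19.2%, against 1.13% of all genes with a peak. These were Sox6, Mef2c, Tead1, Mef2a and Eya4. The median sum over the list was 11, compared with 5 for all genes, so most factors on it lay well below the limit.

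Sox6, which represses slow fibre genes in fast muscle, had 14 peaks, 17, 12 and 8, in 28 regions from -70.9 kb to 335 kb. Of these regions 2 were open in all 4 muscles and 16 in 1 alone. Mef2c, a MADS box factor of muscle differentiation, had 14, 15, 12 and 7 peaks in 20 regions, 6 of them open in all 4. Mef2a had 11, 13, 8 and 5, and every one lay upstream of its TSS, between -127 kb and -0.332 kb. The related genes Mef2a and Mef2c thus had like counts and unlike layouts.

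Tead1, which binds the M-CAT element of muscle genes, had 12, 15, 8 and 7 peaks, 37 of them in introns, and 10 of its 18 regions formed 1 cluster of 60.6 kb. Eya4, a partner of homeobox factors, had 10, 14, 10 and 3. Its Dia count was 1.39 per 10000 listed peaks, against 3.32 in EDL and 3.47 in both Quad and Sol.

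Among 22 AP-1, Maf and immediate early factors, 4 were dense, or 18.2% against 1.13% of all genes with a peak: Klf4, Maf, Jun and Fos. AP-1 is the dimer of Fos and Jun family proteins that answers growth factors and stress. Fos had 12, 9, 9 and 7 peaks in EDL, Quad, Sol and Dia within 59.3 kb of its TSS, in 15 regions, 5 of which were open in all 4. These were strong sites: the median score percentile of the Fos peaks was 82.4, the highest of any dense gene. Jun had 13, 13, 11 and 8, with 97.8% upstream, out to -251 kb. In the current RefSeq gene models 20 of these 45 peaks are nearest to Jun. Maf had 14, 21, 9 and 4 peaks, no promoter peak and 2 of 30 regions open in all 4. Per 10000 listed peaks its count was 4.65, 5.21, 3.13 and 1.85.

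Of 50 other developmental transcription factors, 7 were dense, or 14.0% against 1.13% of all genes with a peak. Among them were Nfia, Foxp1, Zbtb16, Nfib, Tcf4 and Runx1. Nfia had 17, 19, 13 and 9 peaks and Foxp1 had 12, 22, 14 and 9, mostly in introns, with 54 and 44 intronic peaks. Zbtb16 had 12, 12, 10 and 7 peaks in 14 regions, with a median score percentile of 81.6. Nfib, Tcf4 and Runx1 had sums of 39, 38 and 37. Among 34 nuclear receptors and coactivators, 3 were dense, or 8.82% against the same 1.13%. They were Rora with 18, 23, 14 and 12 peaks, Nr3c1, the glucocorticoid receptor, with 16, 17, 13 and 8, and Ppargc1a with 6, 11, 11 and 9. Ppargc1a encodes PGC1α, a coactivator of mitochondrial genes, and is described with the muscle balance below.

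The lists of muscle structure, signalling and fuel use held 1 or 2 dense genes each, or 4.26%, 5.13% and 3.57% of the list, against 1.13% of all genes with a peak. Of 47 sarcomere, membrane and calcium handling genes, 2 were: Pdlim5, a Z-disc protein, with 14, 17, 13 and 6 peaks, and Jph1, which joins the transverse tubules to the sarcoplasmic reticulum, with 11, 10, 11 and 5. Of 39 signalling genes, Lpp with a sum of 53 and Pde4b, a phosphodiesterase of cAMP, with 45 were dense. Of 28 energy metabolism genes, Lpl, which frees fatty acids from lipoproteins, was dense with 10, 11, 8 and 6.

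Markers of other cell types included 1 dense gene. Among 17 endothelial and smooth muscle markers, Kdr, a receptor of vascular endothelial growth factor, was dense, or 5.88% of that list against 1.13% of all genes with a peak. It had 10, 11, 12 and 8 peaks, and Flt1 missed the limit with 34. Peaks of that list summed to 21.6, 19.3, 23.3 and 16.7 per 10000 listed peaks. No dense gene was found among 17 fibroblast markers, 12 leukocyte markers or 9 satellite cell markers. With 1.13% of all genes dense, lists this short can easily hold none. The fibroblast list summed to 13.9, 13.4, 8.34 and 6.02 per 10000, with Lum and Tnmd without a peak in any list. The leukocyte list summed to between 0.463 in Dia and 2.73 in Quad, with Cd68, Itgam and Ikzf1 among the genes without a peak. The satellite cell list summed to between 3.71 in Dia and 7.69 in Quad. The part of these cell types in the dense genes was not tested. Among defining genes of muscle fibres, named here after their values were seen, Acta1 had a sum of 12, Ckm 5 and the myosin genes Myh1, Myh2, Myh4 and Myh7 between 1 and 6, with both Myh7 peaks in Sol.

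Peaks of dense genes were spread far from their TSS. Pooled over the lists, their median distance was 56.7 kb, against 8.66 kb for peaks of other genes. Part of that follows from the rule, because a gene has few promoters and a high count must be filled elsewhere: promoters, which reached 1 kb upstream and 100 bp downstream, took 7.39% of dense-gene peaks and 32.9% of other peaks. Outside promoters the medians were 64.7 kb and 22.5 kb. In the same comparison by muscle, dense-gene peaks had medians of 63.8 kb, 66.1 kb, 64.9 kb and 61.8 kb, and peaks of other genes 22.0, 23.3, 23.0 and 20.7 kb. The muscles differed from each other by far less than the classes of genes did.

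**Figure D2:**
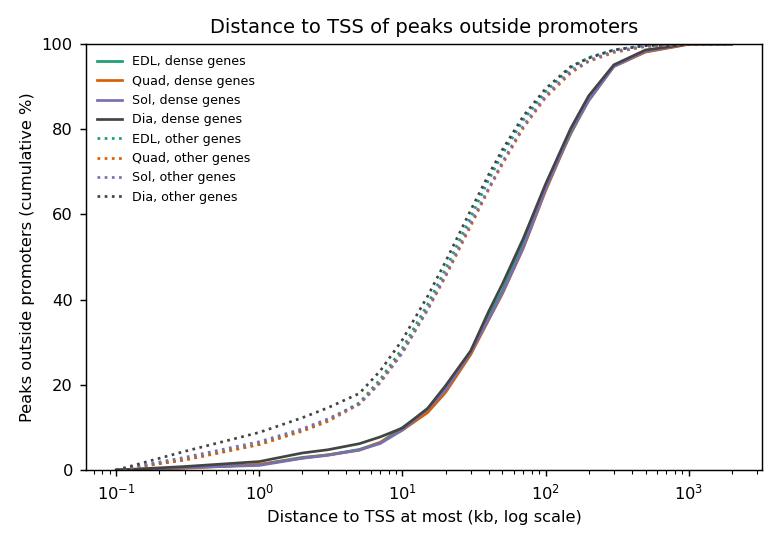
Cumulative share of peaks outside promoters (percent) against the distance to the nearest TSS (kb, log scale), for dense genes (solid) and other genes (dotted) in EDL, Quad, Sol and Dia. The 4 solid lines nearly coincide and lie to the right of the dotted ones, with medians from 61.8 to 66.1 kb against 20.7 to 23.3 kb.

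Introns, of the named gene or of another, held 51.3% of dense-gene peaks and intergenic DNA 39.4%, compared with 32.3% and 29.3% of other peaks. In EDL the intron share was 18.5 percentage points higher than in other genes (95% Newcombe interval 16.3 to 20.6), and in Dia 23.2 points higher (20.4 to 25.9). Exons and untranslated regions were rarer, with 1.70% of dense-gene peaks and 4.18% of others. Distances over 200 kb were found for 12.2% of dense-gene peaks and 2.49% of others. Outside promoters, 40.5% of dense-gene peaks and 39.1% of others lay upstream of the TSS, so the balance between the sides was alike. Distances were not compared for each side.

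Single genes differed greatly in spread. The interquartile range of the signed distance had a median of 103 kb over dense genes and went from 13.4 kb to 564 kb. It was narrowest at Mef2c, where it reached from -13.2 kb to 0.176 kb, followed by Arhgef3 with 14.4 kb, Dock9 with 15.3 kb, Osbpl1a with 18.7 kb and Dab2ip with 18.8 kb. Distance is taken to the nearest of several TSSs of a gene, and 4 of these genes had 8 or more promoter peaks over the 4 lists, with 11 at Mef2c, 8 at Arhgef3, 12 at Dock9 and 11 at Dab2ip. Even so, Mef2c reached from -379 kb to 64.3 kb at its outermost peaks. The widest were Adgrl2 with 564 kb, Ppargc1a with 481 kb, Tbl1xr1 with 480 kb, Wwox with 377 kb and Ptprg with 342 kb. In the current RefSeq gene models 23 of the 61 Tbl1xr1 peaks are nearest to Tbl1xr1. Adgrl2, an adhesion receptor, had peaks from -35.2 kb to 1011 kb and none at a promoter.

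Peaks also lay to 1 side of some genes. At 9 dense genes 90% or more of the peaks were upstream, among them Klf4, Jun and Mef2a, and at 20 genes 10% or fewer, among them Plpp3 with 5.48% and Tns3 with 2.5%. At 113 genes intron peaks outnumbered intergenic ones and at 81 the reverse held. No promoter peak was found at 41 dense genes, including Nfia, Nr3c1, Maf and Ly86. Sec61b, a subunit of the protein translocon, had no peak near its start: all 39 of its peaks were intergenic and downstream, from 23.4 kb to 233 kb.

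**Figure D3:**
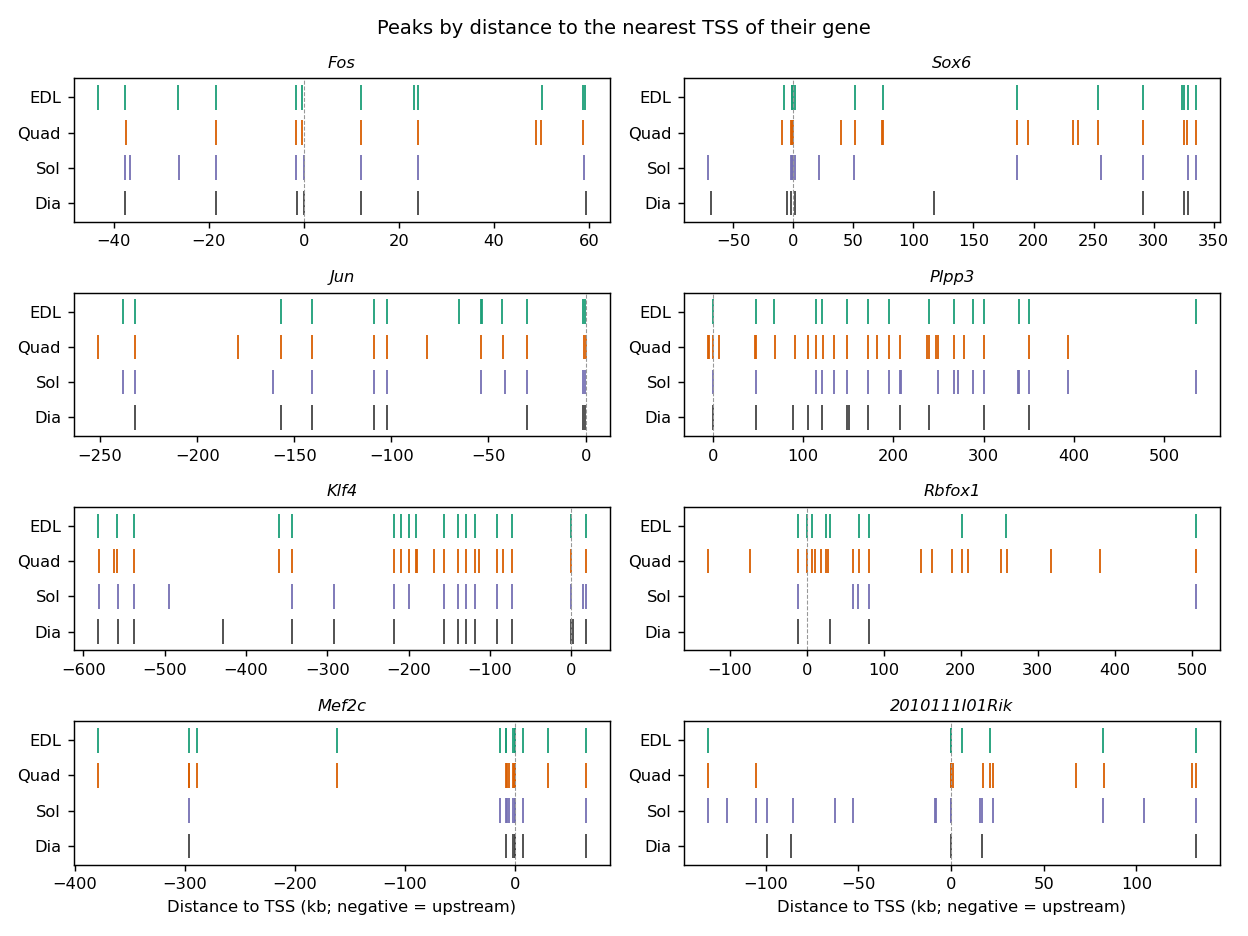
Peaks of 8 dense genes by distance to the nearest TSS (kb, negative upstream), with 1 row of ticks per muscle and a dashed line at the TSS. Fos peaks stay within 59.3 kb, Jun and Klf4 peaks extend upstream to -251 kb and -582 kb, Plpp3 peaks extend downstream to 535 kb, and Rbfox1 and 2010111I01Rik have more ticks in Quad and in Sol, respectively.

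Within a gene the regions fell into clusters. When regions no more than 12.5 kb apart were joined, a dense gene had a median of 8 clusters, and its largest cluster had a median of 6.00 regions over 25.9 kb. In 21 genes the largest cluster had 10 or more regions. The most were 16 regions, within 76.8 kb at Tsc22d3, a gene that glucocorticoids induce, and within 74.9 kb at A330074K22Rik. Pdlim5 followed with 14 regions in 52.9 kb, out of 26. Klf4 was of the opposite kind, with 28 regions in 13 clusters and no more than 5 together. A high sum therefore stood for a few packed blocks at some genes and for many scattered sites at others.

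The count rule takes no account of space. The territory of a gene is the DNA that lies nearer to one of its TSSs than to a TSS of any other gene. In RefSeq gene models the median territory was 285 kb for dense genes and 49.8 kb for other genes, and in GENCODE vM21, which has more genes, 140 kb and 32.0 kb. Dense genes had a median of 13.8 peaks per 100 kb of RefSeq territory, against 10.4 for other genes, and 39.8% of other genes exceeded the dense median. Counted over all their territory together, dense genes had 11.3 peaks per 100 kb and other genes 5.79. Their territories covered 69.4 Mb, or 2.55% of the assembled genome.

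A wide territory went with a high sum at some genes and not at others. Of the 1419 genes with a territory at least as wide as the median dense gene, 97 were dense, or 6.84% against 1.13% of all genes with a peak, and the others among them had a median sum of 6.00. The cut was the median of the dense genes themselves, so the number of dense genes above it was fixed in advance. Few dense genes were the most crowded per length: among the 3720 genes with a sum of at least 10 and a territory, the 194 with the most peaks per 100 kb included 1 dense gene. The highest values in dense genes were 43.0 per 100 kb at Irf2bpl, 38.4 at Tsc22d3, 35.3 at Hs1bp3 and 34.8 at Dapk2, with Fos and A630001O12Rik both at 33. The lowest was 2.65 at Rbfox1, in a territory of 1512 kb. The density of Rbfox1 thus lay below the median of other genes.

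**Figure D4:**
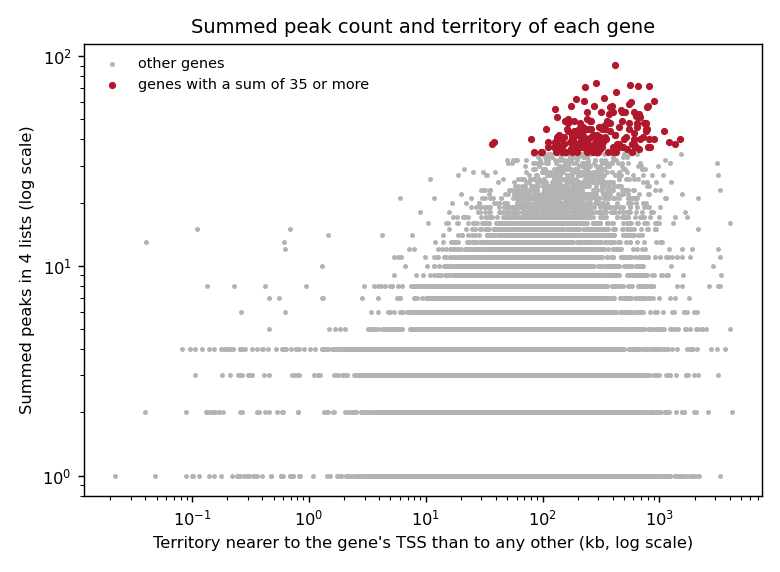
Summed peaks in 4 lists against the RefSeq territory of each gene (kb), both axes on a log scale, with dense genes in red and other genes in grey. Dense genes have a median territory of 285 kb against 49.8 kb, and many grey points of equal width lie far below a sum of 35.

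Pisd-ps3, a pseudogene, stood apart from all of these. Its 37 peaks, in 11 regions, were all the peaks listed on 1 unplaced scaffold, JH584304, between positions 59575 and 113475, and their median score percentile was 77.9. Where reads of a sequence with several copies were placed was not tested.

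The balance between muscles was read against list length. Dense genes held 7.31% of the EDL list (95% Wilson interval 7.02% to 7.61%, 2202 of 30136 peaks), 7.12% of Quad (6.87% to 7.37%, 2870 of 40337), 7.19% of Sol (6.90% to 7.49%, 2069 of 28784) and 6.15% of Dia (5.84% to 6.48%, 1328 of 21582). EDL, Quad and Sol had overlapping intervals and Dia lay below all 3. These intervals cover counting error only, and with 1 peak list per muscle no test between muscles was possible.

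The lower share of Dia went with its larger share of promoter peaks, 8908 of 21582, where Quad had 10293 of 40337. Among peaks outside promoters, dense genes held 9.79% in EDL (9.39% to 10.2%), 8.98% in Quad (8.66% to 9.31%), 9.73% in Sol (9.32% to 10.2%) and 9.42% in Dia (8.92% to 9.94%). There Dia overlapped with the other 3, and Quad was the lowest, its interval lying below those of EDL and Sol. Among promoter peaks the share was 1.72%, 1.67%, 1.76% and 1.5%. When each list was cut to its 20000 highest scores, the same genes held 7.09%, 6.58%, 6.88% and 6.17% in the same order.

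Because all 4 lists entered the choice, and longer lists weigh more in the sum, each list was also set against genes chosen by the other 3 alone, with a sum of 27 or more over those. In the list left out, such genes held 6.27% for EDL (166 genes), against 6.14% of the lists that chose them. The values were 4.38% against 4.53% for Quad (113 genes), 6.74% against 6.85% for Sol (189 genes), and 7.47% against 9.12% for Dia (262 genes). EDL, Quad and Sol thus came near the share in their choosing lists, while Dia fell short, with an interval of 7.13% to 7.83%. The share in the choosing lists is part of the choice itself. These shares cover whole lists, promoters included, and were not computed outside promoters.

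**Figure D5:**
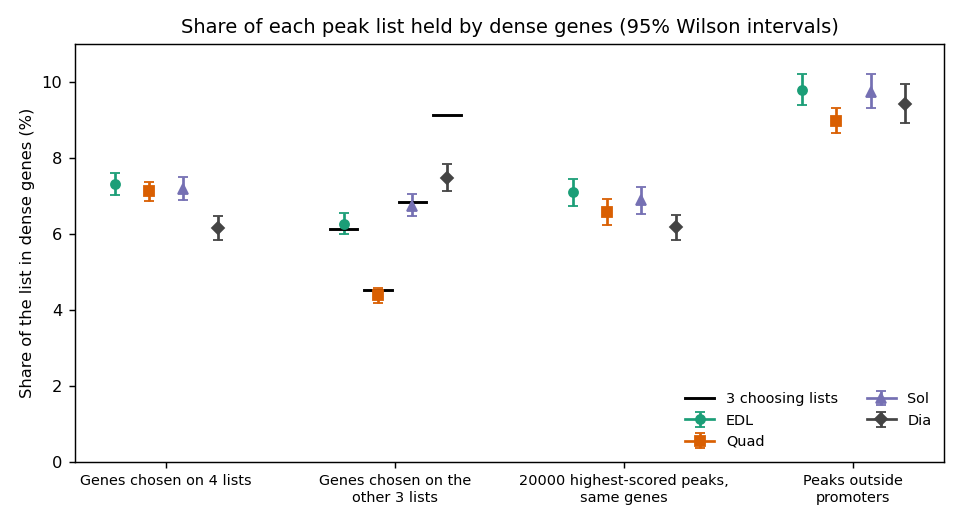
Share of each list in dense genes (percent) with 95% Wilson intervals for EDL, Quad, Sol and Dia, for genes chosen on 4 lists, genes chosen on the other 3 lists (black bars give the share in the choosing lists), the 20000 highest-scored peaks and peaks outside promoters. Dia is lowest for whole lists at 6.15% and stands below its black bar, 9.12%, which also covers whole lists. Outside promoters Dia overlaps the other muscles at 9.42%.

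Dense genes were scarce among the strongest peaks. Among peaks ranked 1 to 5000 by score they held 3.98%, 3.20%, 3.72% and 2.70%. At ranks above 15000 and up to 20000 they held 8.74%, 8.88%, 8.92% and 7.98%. Promoter peaks have high scores, and outside promoters the order was the opposite. There the median score percentile of dense-gene peaks was 43.2, 45.0, 41.6 and 36.8, compared with 38.3, 40, 38.2 and 32.7 for other genes. At promoters it was 71.3, 80.4, 72.1 and 71.7 against 76.3, 81.3, 75.7 and 74.1. In each list the median percentile at dense genes was thus somewhat higher outside promoters and lower at promoters. The rule favours regions called in several lists, and its part in these gaps was not tested.

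Single genes were compared by the ratio of their peaks per 10000 listed peaks in a muscle to the mean of the other 3. A gene was counted as raised at 1.5-fold or more and as lowered at 1.5-fold or more below, beside all 3730 genes with a sum of at least 10. In EDL 11 dense genes were raised, where 11.4% of all those genes were, and 4 were lowered, where 10.6% were. In Quad 8 were raised against a background of 12.1%, and 9 were lowered against 11.2%. In Sol 9 were raised against 9.73% and 7 lowered against 12.9%. In Dia 1 was raised against 10.6% and 39 lowered against 25.8%. Except for the 20.1% of dense genes lowered in Dia, between 0.515% and 5.67% of dense genes passed either limit, all below the background, whose genes have smaller counts and so vary more. The counts per gene had chosen the dense genes, and nothing is read from these shares.

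The most skewed dense gene was Rbfox1, which encodes a regulator of splicing in nerve and muscle. It had 10 peaks, 22, 5 and 3, a ratio of 2.54 for Quad. Quad thus held 55.0% of its peaks (95% Wilson interval 39.8% to 69.3%), while the Quad list held 33.4% of all peaks. It ranked first of 194 genes in Quad, and the interval does not allow for that choice. Its Sol ratio, 0.513, was among the lowest in Sol. Tns3, a tensin of cell adhesion, with 9, 18, 10 and 3 peaks, and 0610039H22Rik, with 10, 17, 7 and 4, followed in Quad at 1.71 and 1.66. Both had their fewest peaks in Dia. Their Quad shares were 45.0% (30.7% to 60.2%) and 44.7% (30.1% to 60.3%), and both intervals included the Quad list share.

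In Sol the highest ratio was 2.33 at 2010111I01Rik, an aminopeptidase gene that RefSeq now names Aopep. It had 7, 12, 17 and 5 peaks in EDL, Quad, Sol and Dia, which is 2.32, 2.97, 5.91 and 2.32 per 10000 listed peaks, and Sol held 41.5% of its peaks (27.8% to 56.6%), against 23.8% of all peaks. The gene was chosen by its Sol ratio, and the interval does not allow for that choice. Of its 25 regions 16 were found in 1 list and 2 in all 4. Dlc1, a GTPase activating protein, followed with 8, 13, 14 and 3 peaks and a ratio of 2.01, and Mecom, a zinc finger factor, and Limch1 had ratios of 1.67. The Sol intervals of Dlc1 (23.4% to 52.7%), Mecom (21.2% to 50.1%) and Limch1 (21.8% to 51.2%) included the list share of 23.8%. Sol was lowest at 9530091C08Rik with 13, 14, 5 and 6 peaks (0.493), followed by Rbfox1 and A330074K22Rik with 16, 19, 7 and 7 (0.550). The Wilson interval of A330074K22Rik in Sol, 7.10% to 26.7% of its peaks, still included the list share of 23.8%.

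In EDL the highest ratios were 1.80 at Cops8, a signalosome subunit, with 16, 17, 8 and 4 peaks, 1.77 at Ninj2 with 13, 9, 8 and 5, and 1.63 at Dst, a cytoskeletal linker, with 15, 14, 11 and 4. Cops8 had 35.6% of its peaks in EDL (23.2% to 50.2%), an interval that included the EDL list share of 24.9%. The lowest was Ppargc1a, whose counts of 6, 11, 11 and 9 are 1.99, 2.73, 3.82 and 4.17 per 10000. Its level thus stood higher in Sol and Dia than in EDL and Quad, with ratios of 0.557, 0.820, 1.29 and 1.46. Its EDL share of 16.2% (7.65% to 31.1%) did not differ from the list share beyond counting error. The next lowest in EDL were 2010111I01Rik at 0.622 and Arhgef3, a guanine nucleotide exchange factor, at 0.651.

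Tmcc3 was the sole dense gene raised in Dia, with 14, 16, 12 and 16 peaks and a ratio of 1.74. Dia held 27.6% of its peaks (17.8% to 40.2%), an interval that included the 17.9% of the Dia list, and 8 of its 21 regions were open in all 4 muscles. Tmem131 with 1.47 and Ppargc1a with 1.46 came next. The lowest Dia ratios were 0.257 at Fndc1 with 12, 15, 9 and 2 peaks, 0.264 at Arhgap24 with 10, 15, 10 and 2, and 0.379 at Sec61b with 13, 13, 10 and 3. For Fndc1 the Dia share was 5.26% (1.46% to 17.3%) and the interval ended just under the list share. Fndc1 was named for having the lowest Dia ratio, and its interval does not allow for that choice. In the current RefSeq gene models 18 of its 38 peaks are nearest to Fndc1. Quad was lowest at Nedd9, a scaffold of focal adhesions, with 15, 11, 13 and 11 peaks (0.561), then at Epas1, a hypoxia-inducible factor, with 13, 11, 13 and 9 (0.629).

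Sharing between muscles was counted over merged regions. The 3866 regions of dense genes included 864 with a peak in all 4 lists, or 22.3% (21.1% to 23.7%), and 1604 in 1 list, or 41.5%. Of other regions 27.3% (26.9% to 27.6%) were in all 4 and 42.7% in 1. Promoter regions, which make up fewer of the regions of dense genes, were in all 4 lists in 55.7% of cases (48.9% to 62.2%) at dense genes and 66.3% at others. Every dense gene had at least 1 region open in all 4. The regions in 1 list alone were 7.04% of dense-gene regions for EDL, 21.5% for Quad, 9.11% for Sol and 3.88% for Dia, near the 6.69%, 22.8%, 8.58% and 4.67% of other regions. Outside promoters the order was the opposite of that over all regions, since 20.4% of dense-gene regions were open in all 4 (19.1% to 21.8%) and 15.6% of other regions (15.2% to 15.9%). The rule favours such regions, since each adds 4 to the sum. When genes were ranked by merged regions instead, each counted once, the first 194 genes had 17.6% (16.5% to 18.9%) outside promoters against 15.8% (15.5% to 16.2%) for other genes, a smaller gap with intervals that did not overlap.

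Base composition differed little. In the 200 bp around the centre of peaks outside promoters, mean GC content was 51.3% ± 6.08 (SD, n = 2033 peaks) at dense genes and 52.5% ± 6.96 (n = 18829) at other genes in EDL. It was 51.0% against 52.3% in Quad, 51.6% against 52.9% in Sol and 52.4% against 53.6% in Dia. The direction was the same in each list, and the gap was small beside the spread between peaks. Windows with more than 50% of bases in annotated repeats, which the reference prints in lower case, were rare: 0.689% at dense genes and 1.78% at others in EDL, and 1.26% and 2.68% in Quad, where they were most frequent.

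The 6 motifs were searched on both strands in the same windows, and a match is a description of letters, not of a bound factor. CTCF, a protein that sets borders between chromatin domains, gave the clearest difference. Its core motif was found in 3.10% of dense-gene peaks and 6.33% of other peaks in EDL, a difference of -3.23 percentage points (95% Newcombe interval -3.99 to -2.32), with 6.02% over all peaks of that list. The shares were 2.49% and 5.50% in Quad, 2.68% and 5.32% in Sol, and 3.79% and 6.84% in Dia, with differences of -3.01, -2.63 and -3.05 points. In each of the 4 lists the interval excluded 0.

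Distance moved with this difference. At 10 to 50 kb from the TSS the core motif was found in 2.77% of dense-gene peaks and 7.24% of others in EDL, 2.56% and 6.05% in Quad, 2.80% and 6.30% in Sol, and 4.79% and 8.49% in Dia. At 1 to 10 kb the gap was wider in each list, with 2.26% and 7.92% in EDL. At 50 to 200 kb the shares were 3.63% and 4.02% in EDL, 2.63% and 3.74% in Quad, 3.38% and 3.34% in Sol, and 4.18% and 5.02% in Dia. There the interval of the difference included 0 in each list, but barely in Quad (-2.02 to 0.0280 points). Beyond 200 kb, too, each interval included 0, the widest being -0.779 to 5.10 points in Dia. Over all distances, peaks with lower and with higher score percentiles both had intervals below 0 in each list. At dense genes 82 of 193 on assembled chromosomes had a match outside promoters, and Wwox had the most, in 4 of 25 regions.

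The AP-1 motif TGANTCA was somewhat more frequent at dense genes, with 13.0% against 11.2% in EDL (difference 1.80 points, 0.330 to 3.39) and 12.6% against 11% in Quad (1.52, 0.264 to 2.88), and 11.4% and 11.2% over all peaks. In Sol and Dia the intervals of the difference, -0.0208 to 3.15 and -1.07 to 2.77, included 0. The TEAD motif CATTCC was found in 14.3% against 12.7% in Quad (0.325 to 3.09) and 15% against 12.7% in Dia (0.298 to 4.54), with 12.8% and 12.9% over all peaks and intervals that included 0 in EDL and Sol. It is also the core of the M-CAT element, and Cdh13, a cadherin, had it in 10 of 22 regions, a gene named after its value was seen.

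The MEF2 motif was rare, in 2.19% of all Quad peaks and 2.18% of all Dia peaks outside promoters, with 2.90% of dense-gene peaks and 2.13% of others in Quad (difference 0.774, 0.177 to 1.5) and 3.03% against 2.09% in Dia (0.941, 0.0616 to 2.10). In EDL and Sol its interval included 0. The nuclear receptor motif AGGTCA was found in 19.7% against 17.8% in Sol (1.92, 0.0998 to 3.85), with 18% over all peaks. Its differences in EDL, Quad and Dia, 0.289, 1.06 and 0.974 points, had the same sign and intervals that included 0 and overlapped with that of Sol. The E-box CAGCTG, which MyoD family factors bind, did not differ beyond counting error: it was found in 23.7% and 24.3% in EDL, 22.6% and 22.8% in Quad, 23.8% and 24.0% in Sol, and 21.1% and 21.9% in Dia, and each interval of the difference included 0, the widest reaching from -3.17 to 1.71 points. With 24 such differences set out, and overlapping peaks in the 4 lists, the small differences near 0 should be read as weak.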

How the data were processed

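ATAC-seq peak lists of 4 muscles, 1 each, were analysed. According to the submitters' notes and the study's methods, the authors aligned 42-bp read pairs to mm10 with Bowtie2, called peaks of fixed width with HOMER (188 bp in Quad, 206 in Sol, 208 in EDL and 232 in Dia), and annotated each peak to the nearest TSS. The HOMER version is not given in the sources used here. The deposited Peak Score is a signal, HOMER's depth-scaled number of tags. The deposited Focus Ratio, a fraction, was not used. Distance to TSS, start and end were used as the authors gave them. Read totals were not used here, so depth is given by list length, from 21582 to 40337 peaks. Width and threshold differ between lists (lowest scores 3.06 to 3.63).

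The 194 genes were chosen by the summed count of 35, on the same values. Members, gene lists and motifs were chosen with earlier results of these data known. Genes were named by rule: the 15 largest sums, list members, the 3 highest and 3 lowest ratios per muscle, the 5 narrowest and 5 widest spreads, the 5 highest densities, and up to 3 genes at each side of the limit. Exceptions are stated, and some genes this rule names are not reported here. No p-value was computed. Shares carry 95% Wilson and differences 95% Newcombe intervals. Territories were planned on GENCODE vM21 but RefSeq (GRCm38.p6) was used, chosen after seeing the data: 92.8% of dense-gene peaks lay inside the RefSeq territory of their gene, against 47.9% in GENCODE. Of the dense genes, 193 matched RefSeq and 189 GENCODE. Repeat and CpG island labels were empty in the lists, so the lower-case bases of the reference stood in for repeats. Calculations used Python 3.11.15. Functions for merging, clustering and intervals were tested on simulated data.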

Additional observations from a re-analysis of the deposited data

How the results depend on the processing

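The number of dense genes depended on the limit, while Dia kept the lowest share of its list under each setting of this paragraph. Dia was not the lowest outside promoters (9.42%, against 8.98% in Quad) or at score ranks above 10000 and up to 15000 (8.38%, the highest). Shares of genes chosen by the other 3 lists rest on a different gene set for each list, so they are not ranked. There Dia fell short of the lists that chose its genes, with 7.47% against 9.12%, over whole lists with promoters included. With a sum of 25 there were 523 genes, which held 15.4%, 15.2%, 15.1% and 13.1% of the lists in the order EDL, Quad, Sol, Dia, with a promoter share of 9.07% and a median distance of 46.3 kb. With a sum of 50 there were 35 genes, holding 1.73%, 1.72%, 1.82% and 1.58%, with 6.40% at promoters and 74.1 kb. From the 20000 highest-scored peaks of each list, 36 genes reached a sum of 35 and held 1.95%, 1.89%, 1.81% and 1.58%, with 10.4% at promoters, 49 kb and 28.0% of regions open in all 4 muscles. In those shorter lists the 194 genes held 6.58% in Quad and 6.88% in Sol, with 10.7%, 48.4 kb and 26.5%. Counting peaks within 50 kb of the TSS left 22 genes with 0.984%, 0.941%, 0.927% and 0.897%, 14.3% at promoters, 17.5 kb and 29.0% of regions in all 4. Ranking genes by merged regions exchanged 32 of the 194 genes, and gave 5.80% for Dia and 19.3% of regions in all 4. On autosomes and X 193 genes were left, without Pisd-ps3, and the other 7 results stayed within their intervals. With peaks given to the nearest GENCODE gene instead, an alternative chosen after seeing the data, 68 genes reached the limit, 40 of them dense before, and held 2.64%, 2.67%, 2.52% and 2.23%. The names of dense genes thus rest on the gene models used.

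No paired analysis was possible because each muscle had 1 peak list. The shares and intervals cover counting error only, and neither animals nor library preparation can be told apart from muscle. Peaks were called with a width and threshold of each list's own. Settings that fix the number of genes gave no count of genes. Promoter share and distance were not recomputed for GENCODE.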
